A study of Mus musculus with 6 samples.

Results

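The endocannabinoid genes examined here are Cnr1, which encodes the cannabinoid receptor CB1, Cnrip1, which encodes a protein that binds this receptor, and 7 genes of the enzymes that make and break down its ligands (Dagla, Daglb, Mgll, Abhd6, Abhd12, Napepld and Faah). These 9 genes were chosen by name from the 54532 genes of the deposited table, with the lower Cnrip1 level of the si-circRtn4 libraries in view, so their differences between the groups are given as descriptions with no test, and calls among them are only counted, once, beside the share of all genes called. Averaged over the 6 libraries, 8 of the 9 genes reached 1 FPKM and were among the genes tested, and Mgll stayed below this limit. FPKM is the number of fragments on a gene scaled by the gene's length and by a depth factor of the library. Levels of different genes can therefore be set side by side on this scale.

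RNA was sequenced from N2a (Neuro2A) cells, a mouse neuroblastoma line, 3 libraries of cells that received the control siRNA si-NC and 3 of cells that received si-circRtn4, an siRNA against the circular RNA circRtn4. The comparison asks which genes differ between cells given si-circRtn4 and cells given si-NC. The study lists no other siRNA against circRtn4, so loss of the circle and other effects of this siRNA cannot be told apart. The labels give total RNA, the strain C57BL/6 and the growth medium for both groups, whereas the study's general methods describe transfection with 100 nM siRNA over 24 h, followed by 48 h with 10 μM retinoic acid, so it cannot be told whether the cells were differentiated. Nothing in the labels says that the 3 libraries of a group came from separate cultures, so p-values measure only the spread between these libraries, which may be technical. In bulk RNA of this kind, fewer cells of a type and less RNA per cell cannot be told apart.

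CB1 is a receptor of the G protein-coupled family that is abundant on nerve endings, where its activation lowers transmitter release. Its main ligands are lipids that cells make on demand: 2-arachidonoylglycerol (2-AG), cut from diacylglycerol by the lipases Dagla and Daglb, and anandamide, released from a membrane lipid precursor by Napepld. Mgll, Abhd6 and Abhd12 hydrolyse 2-AG and Faah hydrolyses anandamide, which ends the signal, whereas the product of Cnrip1 binds the intracellular tail of the receptor. In growing neurons the pathway is also known for its part in axon growth and guidance.

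The study describes circRtn4 as a sponge of the microRNA miR-24-3p, so the 9 genes were searched for the 7-base sites that pair with bases 2 to 8, the seed, of miR-24-3p and of the guide strand of si-circRtn4. The miR-24-3p sequence is from RefSeq, and the guide strand was inferred by reverse-complementing the siRNA strand that the study lists. Both are shown 5′ to 3′ with the seed in capitals, because they define the sites searched for (CTGAGCC for miR-24-3p and ACCCTTT for the guide).
miR-24-3p: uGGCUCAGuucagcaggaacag
si-circRtn4 guide: aAAAGGGTctcatctgaag

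Sites were looked for on the sense strand of the longest annotated 3′ UTR of each gene (GENCODE M21, GRCm38), and 3 of the 9 genes held any. Cnrip1 held 1 site of the guide seed, at chr11:17079291-17079297 on the plus strand, bases 727 to 733 of a 3′ UTR of 807 bases. Dagla held 2 sites of the miR-24-3p seed on the minus strand, at chr19:10245780-10245786 and chr19:10245598-10245604 (bases 1878 to 1884 and 2060 to 2066 of 2399). Daglb held 1, at chr5:143504132-143504138 on the plus strand (bases 733 to 739 of 2543), within the stretch that Daglb shares with Rac1 on the opposite strand. The sites are shown in capitals with 8 bases on each side, on the strand of the gene, since these are the only matches in the 9 genes, and each of the 4 is followed by an A.
Cnrip1, guide: taatacatACCCTTTaacttgaa
Dagla, miR-24-3p, first: gcccaggaCTGAGCCatcaggga
Dagla, miR-24-3p, second: tggggggtCTGAGCCaccccctc
Daglb, miR-24-3p: tcagacctCTGAGCCaggtggta

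Among the 10689 genes tested with a 3′ UTR of at least 20 bases, 12.5% held a guide site, against 1 of the 9 endocannabinoid genes, and 19.6% held a miR-24-3p site, against 2 of the 9. With the A behind the site, these shares were 2.48% for the guide and 8.73% for miR-24-3p. The shares take no account of length: the median 3′ UTR of these genes was 1170 bases, and those of the 9 ran from 608 (Abhd12) to 3796 (Cnr1). The 9 also include Mgll, which was not tested. No enrichment of sites is read from these shares. The 3′ UTRs of Cnr1, Mgll, Faah, Napepld, Abhd6 and Abhd12 held no match to either sequence of 7 bases. A match describes the sequence only.

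Across all genes tested, the si-circRtn4 libraries had 556 genes higher and 615 lower at an adjusted p below 0.05 (limma on log2(FPKM + 1), a moderated linear model fitted to every gene, with Benjamini-Hochberg adjustment over the 12749 genes tested), which is 9.19% of them. The called genes were 47.5% higher, and 71.2% higher (972 against 393) when FPKM was rescaled to the same sum in every library. With replicate number as a block, limma called 2428 genes, or 19.0%, and limma-voom on the reads recovered from FPKM called 1627, or 12.8%. Without regard to a test, the groups did not overlap for 31.7% of the genes tested. Reads on genes numbered 13541198 to 15122063 per library. Rtn4, the gene of the targeted circle, was at 61.0, 66.8 and 69.8 FPKM with si-NC and at 50.1, 56.7 and 62.7 FPKM with si-circRtn4. These values do not tell linear from circular RNA and so do not measure circRtn4. All 10 neuroblast and neuron markers looked for were tested, with a summed level of 1027 to 1144 FPKM with si-NC and 750 to 1041 with si-circRtn4, and at an adjusted p below 0.05 in limma these gave 1 higher (Elavl4) and 2 lower (Phox2a and Gata2). Without si-NC replicate 2, or without si-circRtn4 replicate 2, limma called 0 of these markers (3 had an unadjusted p under 0.05 each time), and without any other library it called 1 or 2. Their part in the values below was not tested. The summed level of 5 fibroblast markers was at most 0.786 FPKM and that of 5 immune markers at most 1.68 FPKM in any library, with Cd3e at 0 throughout. The 5 glia markers summed to 5.06 to 6.07 FPKM with si-NC and 3.86 to 5.57 with si-circRtn4, mostly Mbp, with Aqp4 at 0 throughout.

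Of the 9 endocannabinoid genes, 6 had a lower and 3 a higher mean log2(FPKM + 1) in the si-circRtn4 libraries. The groups did not overlap for 6 of them: Cnrip1, Cnr1, Mgll and Faah were lower in every si-circRtn4 library, and Napepld and Abhd6 were higher in every one. Among the 8 that were tested this makes 5, beside 31.7% of all genes tested. In limma 2 of the 8 were past an adjusted p of 0.05, beside 9.19% of all genes, and 3 with replicate number as a block, beside 19.0%, while leaving out 1 library gave 1 or 2. The 9 genes were chosen on this same contrast, so nothing is read from these counts. The median difference of the 8 genes tested was -0.13 on the log2(FPKM + 1) scale, beside 0.00 over all genes tested.

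**Figure D1:**
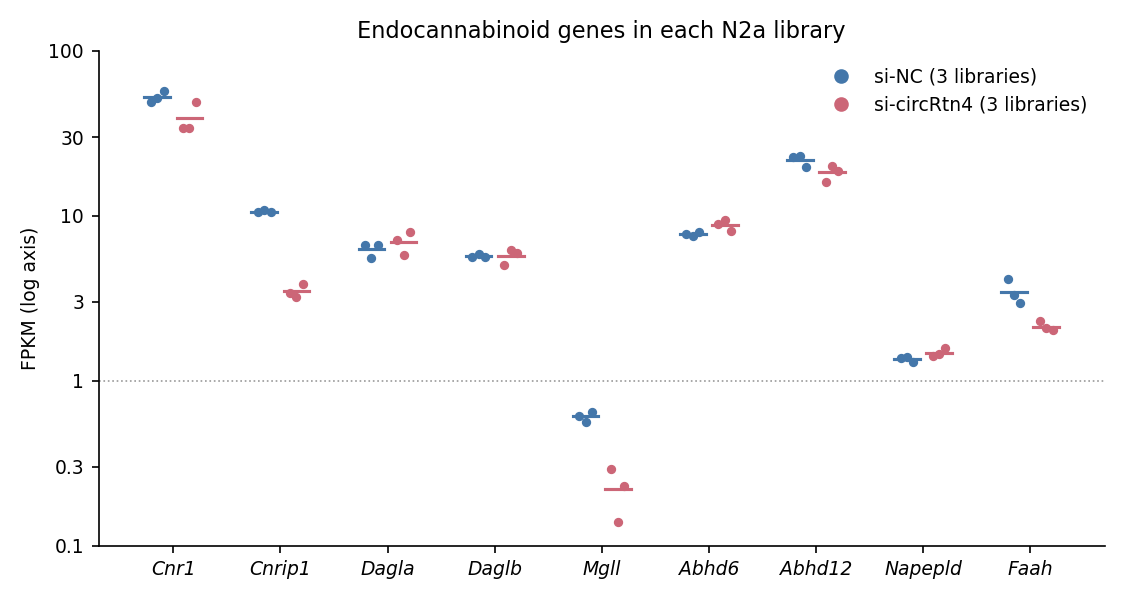
FPKM (log axis) of the 9 endocannabinoid genes in each of the 3 si-NC (blue) and 3 si-circRtn4 (red) libraries, with the group mean as a bar and the limit of 1 FPKM for testing as a dotted line. Cnrip1 stood at 10.5 to 10.8 FPKM with si-NC and at 3.21 to 3.83 with si-circRtn4, while Dagla, Daglb and Abhd12 overlapped between the groups.

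Cnrip1 (ENSMUSG00000044629) spans 17051586 to 17079371 of chromosome 11 in GRCm38, on the plus strand. Its product, cannabinoid receptor interacting protein 1, binds the tail of CB1 inside the cell and is known to dampen the receptor's constitutive activity. Cnrip1 reached 10.5, 10.8 and 10.5 FPKM with si-NC and 3.39, 3.21 and 3.83 FPKM with si-circRtn4. All 3 si-circRtn4 libraries lay far below all 3 si-NC libraries, and neither group spread widely. Means were 10.6 ± 0.189 and 3.48 ± 0.320 FPKM (SD, n = 3 each), so the si-circRtn4 mean was 3.05-fold lower, at 32.8% of the si-NC mean. The difference of the mean log2(FPKM + 1) was -1.38 (standard error 0.060), and within the libraries of equal replicate number it was -1.38, -1.49 and -1.25. This placed Cnrip1 at rank 31 from the lowest of the 12749 genes tested. The values rest on 589 to 632 recovered reads per si-NC library and on 193 to 223 per si-circRtn4 library.

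The first 796 bases of Cnrip1 overlap Plek on the opposite strand, and the sources used here do not say whether counting used strand. Plek, which encodes the platelet protein pleckstrin, was at 1.03 to 1.19 FPKM with si-NC and 1.05 to 1.30 with si-circRtn4, well below Cnrip1 and with overlapping groups. Cnrip1 was also the gene of the 9 with the guide seed site shown above. Among the 1337 tested genes with such a site its log2 difference was at rank 5 from the lowest. Among the 265 with the site followed by A it was at rank 3. The medians of these genes were -0.05 and -0.09. Cnrip1 was chosen for its low level and ranked 31 of all 12749 genes tested, so low ranks here follow from that choice. A part of the guide in its level was not tested.

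Cnr1 (ENSMUSG00000044288, chromosome 4 plus strand, 33924593 to 33948831) encodes CB1 itself, the receptor that Cnrip1 protein binds. It was the most abundant of the 9 genes, above 92.8% of all genes tested in the si-NC libraries. Its levels were 49.2, 51.4 and 57.2 FPKM with si-NC and 34.3, 33.9 and 48.8 FPKM with si-circRtn4. The groups did not overlap, but si-circRtn4 replicate 3 lay just under the lowest si-NC library and well above the other two of its group. The means were 52.6 ± 4.13 and 39.0 ± 8.51 FPKM (SD, n = 3 each), with a log2 difference of -0.44 (standard error 0.18), and the si-circRtn4 mean was 74.1% of the si-NC mean. Without si-circRtn4 replicate 3 the log2 difference was -0.61, and with each of the other libraries left out it was between -0.49 and -0.35. The read numbers, 3140 to 5159 per library, were the highest of the 9 genes.

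The level of Cnrip1 was lower relative to that of its receptor. This follows from the larger difference of Cnrip1, the gene the choice was made on, and is not a further result. Cnrip1 FPKM came to 21.3%, 21.0% and 18.4% of Cnr1 FPKM in the si-NC libraries and to 9.89%, 9.48% and 7.85% in the si-circRtn4 libraries, with means of 20.2% ± 1.60 and 9.07% ± 1.08 (SD, n = 3 each). The groups were well apart. Because the ratio is taken within a library, it does not depend on how libraries were scaled to each other.

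Dagla (ENSMUSG00000035735, chromosome 19 minus strand, 10245265 to 10304877) encodes diacylglycerol lipase alpha, the main enzyme of 2-AG synthesis in the adult brain. It was at 6.66, 5.56 and 6.69 FPKM with si-NC and at 7.17, 5.75 and 7.95 FPKM with si-circRtn4. Replicate 2 was the lowest library of either group, and the groups overlapped. The means of 6.31 ± 0.643 and 6.95 ± 1.12 FPKM (SD, n = 3 each) gave a log2 difference of 0.12 (standard error 0.14). Within libraries of equal replicate number the difference was 0.09, 0.04 and 0.22, higher in all 3 pairs. Omitting si-circRtn4 replicate 3 gave 0.03, omitting si-NC replicate 2 gave 0.04 and omitting si-circRtn4 replicate 2 gave 0.23, so its size rests on single libraries.

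Daglb (ENSMUSG00000039206, chromosome 5 plus strand, 143464584 to 143505942) encodes the related lipase beta. It was at 5.65, 5.89 and 5.65 FPKM with si-NC and at 5.02, 6.16 and 5.94 FPKM with si-circRtn4, so the si-NC values lay inside the range of the si-circRtn4 values. The means were 5.73 ± 0.139 and 5.71 ± 0.607 FPKM (SD, n = 3 each), and the log2 difference of -0.01 (standard error 0.079) took the other sign in 4 of 12 alternative ways of processing. Daglb shares 2309 bases with Rac1 on the opposite strand, a gene at 56.8 to 69.3 FPKM, so reads of the abundant neighbour could not be told from those of Daglb if strand was not used.

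Set against each other, the pair of lipases kept a similar share of their summed FPKM. Dagla made up 54.1%, 48.6% and 54.2% with si-NC and 58.8%, 48.2% and 57.2% with si-circRtn4, with means of 52.3% ± 3.23 and 54.8% ± 5.70 (SD, n = 3 each). The groups overlapped. These lipases were the 2 genes of the 9 with a miR-24-3p seed site, and a part of miR-24-3p in their levels was not tested.

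Mgll (ENSMUSG00000033174, chromosome 6 plus strand, 88724412 to 88828360) encodes monoacylglycerol lipase, the enzyme that hydrolyses most 2-AG in the brain. In these cells it was the scarcest of the 9 genes, at 0.613, 0.560 and 0.647 FPKM with si-NC and at 0.291, 0.139 and 0.230 FPKM with si-circRtn4. All si-circRtn4 libraries were below all si-NC libraries. The means were 0.607 ± 0.0440 and 0.220 ± 0.0763 FPKM (SD, n = 3 each), which puts si-circRtn4 at 36.3% of si-NC. The log2 difference was -0.40 (standard error 0.057) with the pseudocount of 1, which compresses a gene at this level, and -1.17 with a pseudocount of 0.1. The values rest on 134 reads over the 3 si-NC libraries and 49 over the 3 si-circRtn4 libraries, and the gene was outside the genes tested.

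Abhd6 (ENSMUSG00000025277, chromosome 14 plus strand, 8002902 to 8056763) encodes a membrane hydrolase that degrades 2-AG close to where it is made. It was at 7.79, 7.54 and 7.95 FPKM with si-NC and at 8.86, 9.43 and 8.06 FPKM with si-circRtn4, higher in every si-circRtn4 library though replicate 3 exceeded the highest si-NC library only slightly. The means were 7.76 ± 0.207 and 8.78 ± 0.689 FPKM (SD, n = 3 each), a log2 difference of 0.16 (standard error 0.062), or 0.26 with FPKM rescaled to equal sums.

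Abhd12 (ENSMUSG00000032046, chromosome 2 minus strand, 150832493 to 150904741), which encodes a hydrolase also known to act on lysophosphatidylserine, was the most abundant enzyme gene. Its levels of 22.8, 23.2 and 19.7 FPKM with si-NC and 16.0, 20.1 and 18.8 FPKM with si-circRtn4 overlapped. The means were 21.9 ± 1.93 and 18.3 ± 2.10 FPKM (SD, n = 3 each), with a log2 difference of -0.25 (standard error 0.12), or -0.16 without si-circRtn4 replicate 1.

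The shares of the 3 hydrolases of 2-AG in their summed FPKM also differed. Abhd6 made up 25.0%, 24.1% and 28.1% with si-NC and 35.2%, 31.7% and 29.8% with si-circRtn4, with means of 25.7% ± 2.11 and 32.2% ± 2.75 (SD, n = 3 each). Every si-circRtn4 library was above every si-NC library, the gap being narrow between the replicates numbered 3. The share of Abhd12, nearly the rest of the sum, was 69.6% to 74.1% with si-NC and 63.6% to 69.4% with si-circRtn4. It mirrors the Abhd6 share, and its groups were only just apart. Both shares follow from the levels given above and are not further results. Mgll held only 1.79% to 2.29% and 0.469% to 1.16%, so nearly all hydrolase RNA of this group came from the Abhd genes in both conditions.

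**Figure D2:**
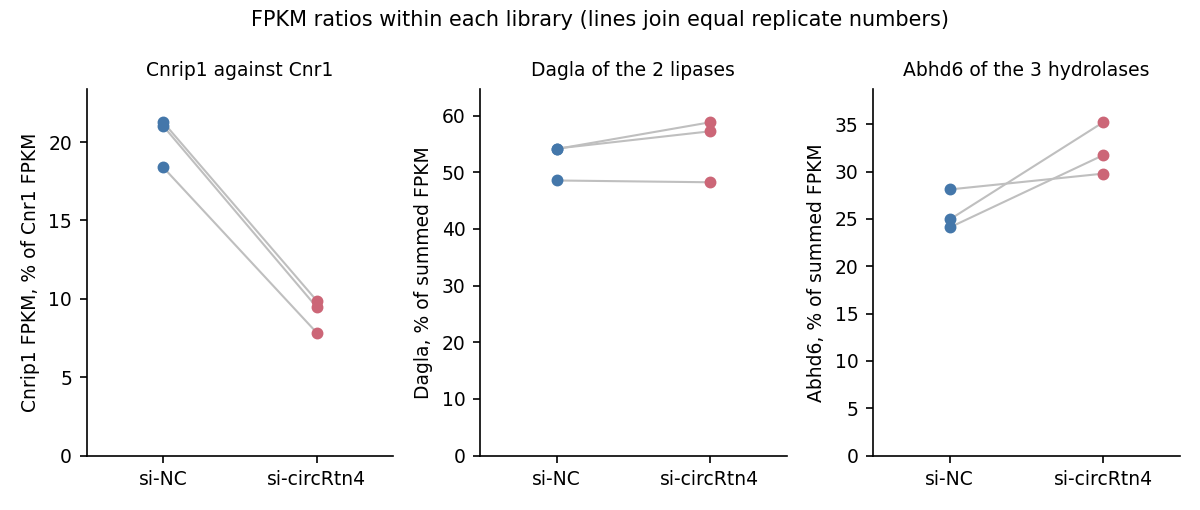
FPKM ratios within each library, in percent, with si-NC libraries on the left and si-circRtn4 libraries on the right of each panel and lines joining equal replicate numbers. Cnrip1 went from 18.4% to 21.3% of Cnr1 with si-NC to 7.85% to 9.89% with si-circRtn4, the Dagla share of the lipases overlapped between the groups, and the Abhd6 share of the hydrolases was higher in all 3 si-circRtn4 libraries.

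Napepld (ENSMUSG00000044968, chromosome 5 minus strand, 21662901 to 21701396) encodes the phospholipase that releases anandamide and related amides. It was at 1.37, 1.38 and 1.30 FPKM with si-NC and at 1.40, 1.45 and 1.58 FPKM with si-circRtn4, a small gap with no overlap. The means were 1.35 ± 0.0458 and 1.48 ± 0.0934 FPKM (SD, n = 3 each), and the log2 difference was 0.07 (standard error 0.035). It was 0.04 without si-circRtn4 replicate 3 and 0.17 with FPKM rescaled to equal sums. Only 72 to 91 reads per library lay behind these values.

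Faah (ENSMUSG00000034171, chromosome 4 minus strand, 115967145 to 116017926) encodes fatty acid amide hydrolase, the enzyme that breaks anandamide down. It was at 4.15, 3.28 and 2.95 FPKM with si-NC and at 2.29, 2.07 and 2.03 FPKM with si-circRtn4. The si-NC libraries were spread while the si-circRtn4 libraries lay close together, and every one of the latter was lower. The means were 3.46 ± 0.622 and 2.13 ± 0.139 FPKM (SD, n = 3 each), which puts si-circRtn4 at 61.6% of si-NC, and the log2 difference was -0.50 (standard error 0.12). Over the fits that each omit 1 library, this difference ran from -0.59 to -0.39.

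Of the pair of anandamide genes, Faah had a lower mean and Napepld a slightly higher one. The Napepld side is weak, since its recovered reads before scaling overlapped (82, 79 and 72 with si-NC, 79, 89 and 91 with si-circRtn4). The ratio below follows from these levels, mostly from Faah, and is not a further result. Faah FPKM was 302%, 237% and 227% of Napepld FPKM with si-NC and 163%, 144% and 128% with si-circRtn4. The means were 255% ± 41.1 and 145% ± 17.4 (SD, n = 3 each) with no overlap, and Faah remained the more abundant of the pair in every library.

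In the si-NC libraries the order of levels in FPKM ran from Cnr1 through Abhd12, Cnrip1, Abhd6, Dagla, Daglb, Faah and Napepld to Mgll. Dagla and Daglb overlapped, and every other neighbour in this order was separated in all 3 libraries. In the si-circRtn4 libraries Cnrip1 stood below both lipases, at rank 6 instead of 3, and the order of the remaining genes was the same, again with overlap for Dagla and Daglb alone. Cnrip1 thus went from above Abhd6 and the lipases to between Daglb and Faah.

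Genes around Cnrip1 were examined because position was not used in the choice of the 9 genes. Within 250 kb on each side, 12 other genes are listed and 7 were tested. In limma 0 of them passed an adjusted p of 0.05 (1 had an unadjusted p under 0.05), beside 9.19% of all genes, and with limma-voom also 0, beside 12.8%. Among 7 genes such a count says little about the neighbourhood. Their log2 differences ran from -0.32 to 0.33, with a median of -0.01. The lowest was that of Wdr92, which encodes a protein with WD repeats, at 11.1, 12.8 and 10.9 FPKM with si-NC and 10.1, 8.67 and 8.59 with si-circRtn4 (-0.32, limma standard error 0.094, adjusted p = 0.0790 with Benjamini-Hochberg adjustment). The highest was that of Fbxo48, an F-box gene, at 0.33 (limma adjusted p = 0.240), with overlapping groups. Plek, which overlaps the start of Cnrip1, differed by 0.02 (limma adjusted p = 0.944). Ppp3r1, the regulatory subunit of the phosphatase calcineurin and at a mean of 54.4 FPKM with si-NC the most abundant gene of the window, differed by -0.09. The others were Eldr (0.21), Pno1 (-0.19) and C1d (-0.01).

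**Figure D3:**
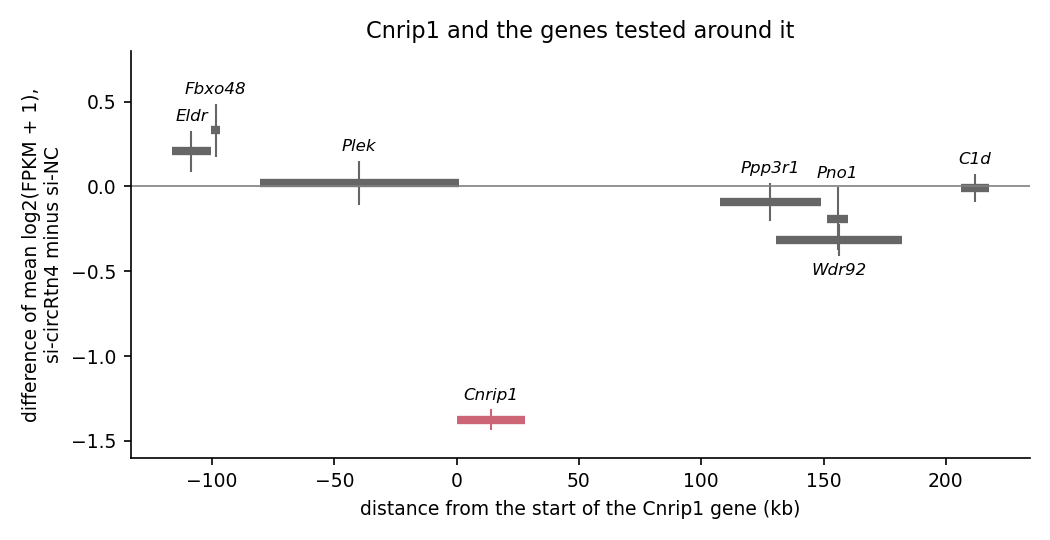
Difference of the mean log2(FPKM + 1), si-circRtn4 minus si-NC, of Cnrip1 (red) and the 7 tested genes around it (grey), drawn as bars over their span in kb from the start of the Cnrip1 gene, with vertical lines for the standard error (from the library spread for Cnrip1 and from limma for the others). Cnrip1 lay at -1.38 and its neighbours between -0.32 and 0.33.

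The genes with the profile most like that of Cnrip1 were sought among the other 10782 protein-coding genes tested, by the root mean square distance between log2(FPKM + 1) values centred on the mean of the 6 libraries. The median distance was 0.70. The nearest was Kcnn3, a calcium-activated potassium channel of small conductance, at a distance of 0.045 and with means of 5.60 ± 0.137 and 1.67 ± 0.204 FPKM (SD, n = 3 each). Abcb10, a transporter of the inner mitochondrial membrane, followed at 0.053, with 45.9 ± 1.96 and 17.7 ± 1.14 FPKM. Like Cnrip1, both had groups well apart. Grap2, an adaptor protein, was at 0.066, with 1.89 ± 0.115 and 0.208 ± 0.0978 FPKM. Its means differ by a larger fold than those of Cnrip1, but the pseudocount of 1 compresses the difference of so low a gene (to -1.26). Sv2c, a synaptic vesicle glycoprotein, was at 0.080, with 103 ± 3.36 and 42.3 ± 6.04 FPKM, and Lama4, a laminin chain, at 0.085, with 14.6 ± 1.20 and 4.93 ± 0.752 FPKM. The likeness is over 6 libraries of 2 groups and is mostly the size of the group difference.

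Other genes of the pathway were taken from 4 lists by role, 46 genes in all, of which 27 were tested. At an adjusted p below 0.05 in limma, 1 of them was higher and 2 lower, 11.1% of those tested, beside 9.19% of all genes. The median log2 difference was -0.09, with 10 genes above 0 and 17 below, beside 0.00 over all genes tested. With replicate number as a block, 9 of the 27 passed (4 higher and 5 lower), beside 19.0% of all genes, and with limma-voom 5 passed (2 higher and 3 lower), beside 12.8%. With FPKM rescaled to equal sums 2 passed, both higher, and neither Abhd2 nor Arrb1, the lower genes described below, passed (limma adjusted p = 0.124 and 0.0641). Leaving out 1 library at a time changed the count: 0 passed in limma without si-NC replicate 2 (10 had an unadjusted p under 0.05), without si-NC replicate 3 (7), without si-circRtn4 replicate 1 (9) or without si-circRtn4 replicate 2 (7), 1 passed when si-NC replicate 1 was left out, and 2 passed when si-circRtn4 replicate 3 was.

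Of 7 other receptors for cannabinoid lipids only Pparg, a nuclear receptor, was tested, at 4.20 to 5.47 FPKM with si-NC and 3.80 to 4.33 with si-circRtn4 (-0.18, limma standard error 0.10, adjusted p = 0.322). The others, Ppara, Trpv1, Gpr18, Gpr55, Gpr119 and the second cannabinoid receptor Cnr2, were at most 0.513 FPKM in any library. Cnr2 was at most 0.0832 FPKM, which left Cnr1 as the one cannabinoid receptor gene with a level above 1 FPKM.

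Of 14 other enzymes of ligand synthesis, 6 were tested and 0 passed an adjusted p of 0.05 in limma, 4 having an unadjusted p under 0.05. With limma-voom 1 passed, beside 12.8% of all genes, and with replicate number as a block 3, beside 19.0%. Abhd4, an alternative route to anandamide, differed most, by -0.36 (limma standard error 0.16, adjusted p = 0.214). Plcg1, a phospholipase that forms diacylglycerol, was at 11.8, 13.5 and 14.5 FPKM with si-NC and at 15.4, 17.1 and 18.9 with si-circRtn4, without overlap (0.34, limma standard error 0.10, adjusted p = 0.0801). With the block its limma adjusted p was 0.0136. Gde1, a phosphodiesterase on the same route as Abhd4, differed by -0.28 (limma standard error 0.090, adjusted p = 0.0958).

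Of 12 other enzymes of breakdown and carriers, 8 were tested, and 1 was higher and 1 lower in limma, beside 9.19% of all genes. In 6 of 12 alternatives limma called 0 of them, with 2 or 3 at an unadjusted p under 0.05: with no filter on low values, and without any 1 library other than si-NC replicate 1. Fabp3, a fatty acid binding protein of the family that carries anandamide in the cytosol, rose from 4.43, 3.03 and 3.04 FPKM with si-NC to 5.64, 5.62 and 6.52 FPKM with si-circRtn4. The means were 3.50 ± 0.803 and 5.93 ± 0.514 FPKM (SD, n = 3 each), with a log2 difference of 0.63 (limma standard error 0.13, adjusted p = 0.0288). Abhd2, a further hydrolase able to cleave 2-AG, fell from 21.0, 19.4 and 19.1 FPKM to 16.5, 13.4 and 15.3 FPKM. Its means were 19.8 ± 1.0 and 15.1 ± 1.56 FPKM (SD, n = 3 each), with a log2 difference of -0.38 (limma standard error 0.091, adjusted p = 0.0431). Fabp5, another carrier, differed by 0.29 (adjusted p = 0.219 in limma and 0.0208 with the block), with overlapping groups. The adjusted p ran from 0.0115 to 0.104 for Fabp3 and from 0.0173 to 0.124 for Abhd2 over the ways of processing, and the direction of both stayed the same in all 12 alternatives.

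Of 13 partners and effectors of the receptor, 12 were tested and 1 passed in limma, beside 9.19% of all genes. With limma-voom 2 passed, beside 12.8%, and with replicate number as a block 3, beside 19.0%. In limma 0 passed with no filter on low values (6 had an unadjusted p under 0.05) or with TPM (3). Likewise 0 passed without any 1 library other than si-circRtn4 replicate 3 (1 to 5 had an unadjusted p under 0.05). Arrb1, a beta-arrestin that binds activated receptors of this class, fell from 11.7, 10.6 and 10.6 FPKM with si-NC to 7.91, 8.15 and 8.68 FPKM with si-circRtn4. The means were 11.0 ± 0.648 and 8.25 ± 0.396 FPKM (SD, n = 3 each), with a log2 difference of -0.37 (limma standard error 0.076, adjusted p = 0.0262, from 0.0102 to 0.0853 over the ways of processing). Grk3, a kinase that marks activated receptors for arrestin, differed by -0.44 (limma standard error 0.15, adjusted p = 0.121, and 0.0266 with the block). Mapk3, the kinase ERK1, differed by -0.25 (limma adjusted p = 0.154). The other beta-arrestin, Arrb2, had the opposite sign, with 25.9 to 28.9 FPKM with si-NC and 30.4 to 32.5 with si-circRtn4 (0.20, limma adjusted p = 0.138). It was named after its values were seen.

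**Figure D4:**
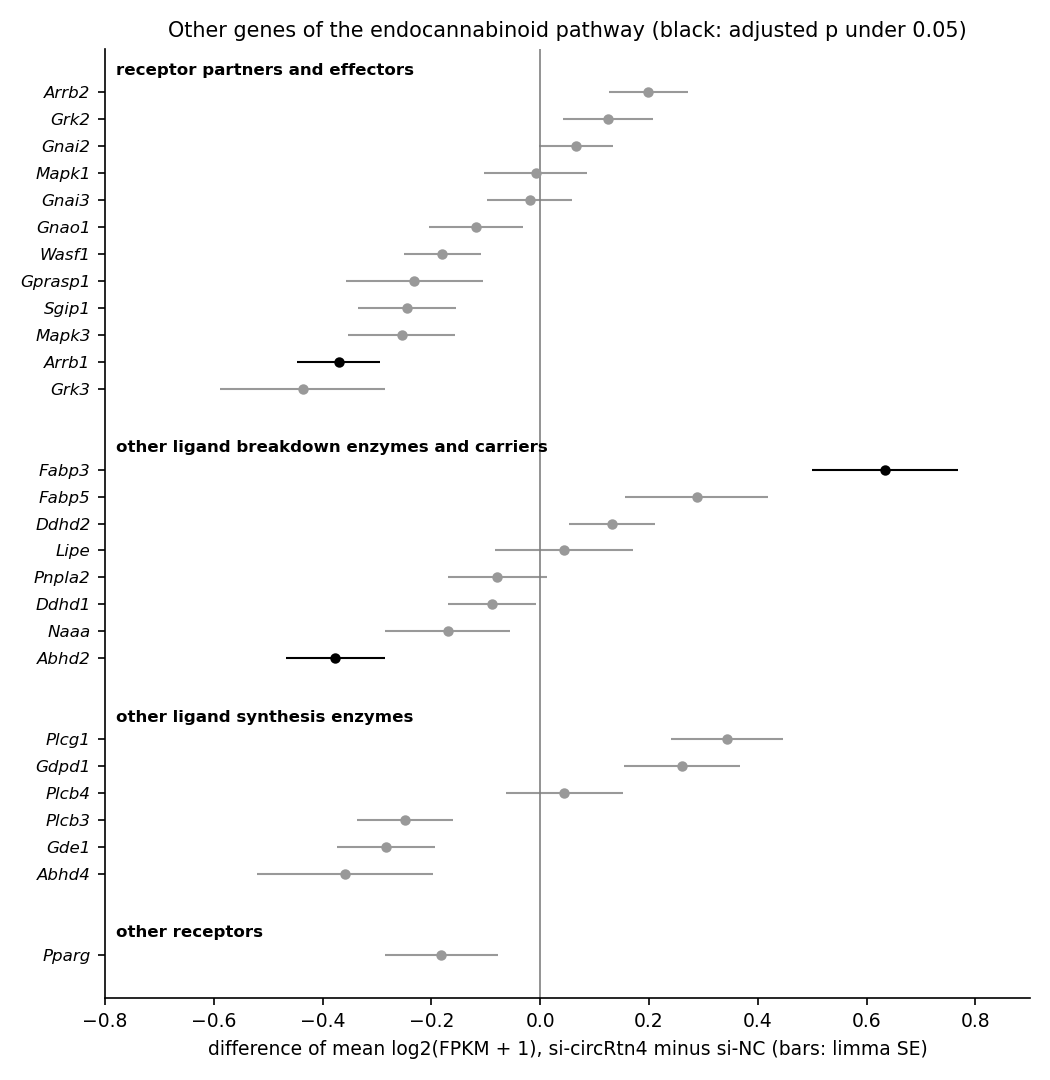
Difference of the mean log2(FPKM + 1), si-circRtn4 minus si-NC, of the 27 tested genes of the 4 pathway lists, with the limma standard error as bars and genes at an adjusted p under 0.05 in black. Fabp3 (0.63) was higher and Abhd2 (-0.38) and Arrb1 (-0.37) were lower, while the other genes lay between -0.44 and 0.34 and did not pass.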

How the data were processed

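The authors deposited 1 FPKM value per gene and library, with gene length, coordinates and description. The submitters' processing notes name Bowtie 0.12.2 and the builds mm8 and mm9, whereas 98.1% of the 54532 genes have the coordinates of GENCODE M21 (GRCm38), as do all 9 members, so the role of those builds is unclear. The counting tool and its use of strand are not given in the sources used here. Libraries were grouped by the sample labels, and 6 further columns of other samples were not used. The product of FPKM and gene length was a whole number of steps in 100% of the values (tolerance 0.1), which allowed the reads to be recovered. The depth implied by the step was not simply the reads on genes. It was 13994867 for si-NC replicate 3, below its 14100818 reads on genes. For si-circRtn4 replicate 1 it was 14226500, above its 13541198. How depth was scaled is not given in the sources used here.

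The 9 members and the lists were chosen with earlier results of these data known. The test used log2(FPKM + 1) of the 12749 genes that averaged 1 FPKM or more, of 28442 above 0, in limma 3.58.1 (R 4.3.3, two-sided, mean-variance trend, Benjamini-Hochberg adjustment over all genes tested), and differences are on this scale, which understates those of low genes. The fit was run on simulated counts of independent libraries with large planted changes, as a check of its working. That check does not measure error rates for the smaller differences in these libraries. Named genes are the members, listed genes past the threshold or otherwise the 3 of each list with the largest difference, the tested neighbours of Cnrip1, its 5 nearest profiles, and Rtn4. Python 3.11.15, numpy 2.4.6, pandas 2.3.3 and matplotlib 3.10.9 were used.

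Replicate numbers are shared between the groups. Libraries of equal number deviated together from their group means (correlations of 0.331, 0.19 and 0.226, against at most 0.009 between others). Deviations from a group mean cancel within the group, so positive values for equal numbers push the others down. The contrast between them is therefore not separate evidence that the libraries were paired. Replicate number was used as a block in an alternative fit, which assumes that equal numbers are pairs. The sources do not say what a number stands for, so calls from the block rest on this assumption. Other alternatives were a pseudocount of 0.1, no filter on low values, FPKM rescaled to equal sums (TPM), quantile normalization, limma-voom on the recovered reads, and leaving out each library. TPM values are larger than FPKM values and kept the pseudocount of 1, so differences of low genes are compressed less there. Changes under TPM thus mix this with the equal sums (Mgll was at -0.69).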

Additional observations from a re-analysis of the deposited data

How the results depend on the processing

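The Cnrip1 difference of -1.38 was -1.58 with a pseudocount of 0.1 and -1.59 with limma-voom on the recovered reads, and -1.43 to -1.33 when 1 library was left out. It was negative in all 12 alternatives, as were those of Cnr1, Faah and Abhd12. Mgll was lower in all 10 alternatives that could give it a value. Dagla, Napepld and Abhd6 were higher in all 12, though Dagla ran from 0.03 to 0.23, Napepld from 0.04 to 0.17 and Abhd6 from 0.11 to 0.26, and Daglb changed sign in 4. Cnr1 ran from -0.61 to -0.35, Faah from -0.67 to -0.39, Abhd12 from -0.32 to -0.16 and Mgll from -1.17 to -0.35.

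The count over all genes, 1171, was 471 with no filter on low values and 380 to 826 when 1 library was left out. TPM moved the share of higher calls from 47.5% to 71.2%. With the replicate block it was 2428, and the block raised the pathway count from 3 to 9, adding Abhd4, Fabp5, Gdpd1, Gprasp1, Grk3 and Plcg1. The counts for the neighbours of Cnrip1 (0) and the neuroblast and neuron markers (3) were the same with the block. The pathway count was 0 in limma with no filter on low values (13 had an unadjusted p under 0.05), 5 with limma-voom, 2 with TPM (both higher), and 0 to 2 when 1 library was left out. The neighbours of Cnrip1 stayed at 0 calls in limma in all 12 alternatives, with 1 or 2 at an unadjusted p under 0.05. The effects of more genes tested, of fewer libraries and of TPM on the share of higher calls follow from the construction of those alternatives. FPKM sums per library were 374443 to 384849 with si-NC and 344732 to 370231 with si-circRtn4. Equal sums therefore raise every si-circRtn4 library relative to every si-NC library. Why the sums differ was not tested, nor was the cause of the other shifts. Depth limits Mgll (11 to 47 reads per library) and Napepld (72 to 91) most.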
